A study of Mus musculus with 6 samples.

Results

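The chaperone genes are 88 of the 21911 protein-coding genes of the mouse annotation (GENCODE release M21, basic set). They are defined by symbol: the Dnaja, Dnajb and Dnajc families, the Hspa, Hspb, Hspd, Hspe, Hsph and Hsp90 genes, Cct2 to Cct8 and their relatives Cct6b and Cct8l1, Bag1 to Bag6, and the heat shock factors Hsf1 and Hsf2. The set holds 10 Hsp70 genes, 3 Hsp110 genes, the Hsp70 partner Hspa14, 3 Hsp90 genes, 8 small heat shock genes, the mitochondrial pair Hspd1 and Hspe1, 8 CCT genes, 45 DnaJ genes, 6 Bag genes and the 2 heat shock factors, on 19 chromosomes. Of the other ring subunits, Cct6a is a processed transcript in this annotation and Tcp1 does not have a symbol of the rule, so neither was a member.

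Chaperones bind unfolded protein, keep it from aggregating and help it fold. Hsp70 proteins do this in cycles of ATP hydrolysis, DnaJ (Hsp40) proteins bring them their substrates and start each cycle, and Bag proteins help release the nucleotide. Small heat shock proteins hold unfolded protein without ATP, the CCT ring folds actin and tubulin, and Hsp60 with Hsp10 forms the folding chamber of mitochondria. Hsf1 switches on the cytosolic genes under stress by binding heat shock elements, and several DnaJ proteins restrain the aggregation of polyglutamine proteins such as mutant huntingtin. H3K4me3, trimethylation of lysine 4 of histone H3, marks the nucleosomes beside active gene starts.

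H3K4me3 ChIP-Seq was performed in STHdh cells, immortalised striatal progenitor cells of C57BL/6 mice. Q7SST was the wild-type line and Q111SST the line with mutant huntingtin, both held without serum for 24 hours with vehicle. The other 4 conditions were Q111 cells held without serum for 24 hours with 10 uM cyproheptadine, loxapine, diacylglycerol kinase inhibitor II (DKI) or meclizine. The study placed cyproheptadine and loxapine in its group A and DKI and meclizine in its group B. Serum withdrawal was common to all 6 conditions, so no list stands for cells in full medium. Each genotype was a single line, and line and genotype cannot be told apart. There was 1 peak list per condition, the design text speaks of triplicate treatment, and whether replicates were pooled is not given in the sources used here. No replicate spread was therefore available, no test between conditions was made, and every difference given here is between 2 lists. All 5 comparisons share the Q111SST list.

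The lists held 30758 (DKI) to 45564 (loxapine) peaks. Median peak width was 766 bp under cyproheptadine, 785 bp under DKI, 792 bp under loxapine, 844 bp under meclizine, 889 bp in Q7SST and 922 bp in Q111SST. Of the neural progenitor markers, Vim and Dlx2 had a promoter peak in all 6 lists, Nes in all but cyproheptadine and Sox2 in all but Q7SST, while Dlx1 and Gsx2 had one in 1 list each. Among striatal neuron markers Drd1, Drd2 and Gad2 had none, Gad1 had one in the loxapine list alone (score 10), and Ppp1r1b had one in Q7SST, Q111SST, loxapine and meclizine (scores of 49, 24, 19 and 32). Of 10 markers of other cell types 9 had none. A gene counted as marked if its list had a peak no farther than 1 kb from one of its annotated starts. The strength of the mark was taken as the rank of the gene's highest peak score within its list, among the 11455 genes marked in all 6 lists, from 0 (weakest) to 100. Unless the area rank is named, rank means this one. The area rank, added after the data were seen, orders the same genes by score times width summed over all their promoter peaks, so that every piece of a promoter's peak counts, while the uncovered bases between pieces add nothing. Values are given below in the order Q7SST, Q111SST, cyproheptadine, loxapine, DKI and meclizine.

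Most chaperone promoters carried the mark whatever the condition. Marked members numbered 77 of 88 in Q7SST (58.6% of all genes), 77 in Q111SST (57.1%), 75 under cyproheptadine (54.1%), 77 under loxapine (56.9%), 77 under DKI (54.6%) and 77 under meclizine (57.3%). In all 6 lists 74 members were marked, 84.1% against 52.3% of all genes. Fewer members met this when the peak had to cover the start itself, and that count is in the closing section. In no list were 9 members marked, 10.2% against 38.5% of all genes. The remaining 5, Dnajc15, Dnajb13, Dnajc22, Hspa12a and Hspb9, were marked in some lists. Of 32 further chaperone and co-chaperone genes outside the symbol rule, among them the ring subunit Tcp1, the Hsp90 partners Cdc37 and Ahsa1, and the calnexin gene Canx, all 32 were marked in all 6 lists. Cct6a also had a peak at its start in all 6 lists, with scores of 112, 140, 79, 127, 102 and 153.

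**Figure D1:**
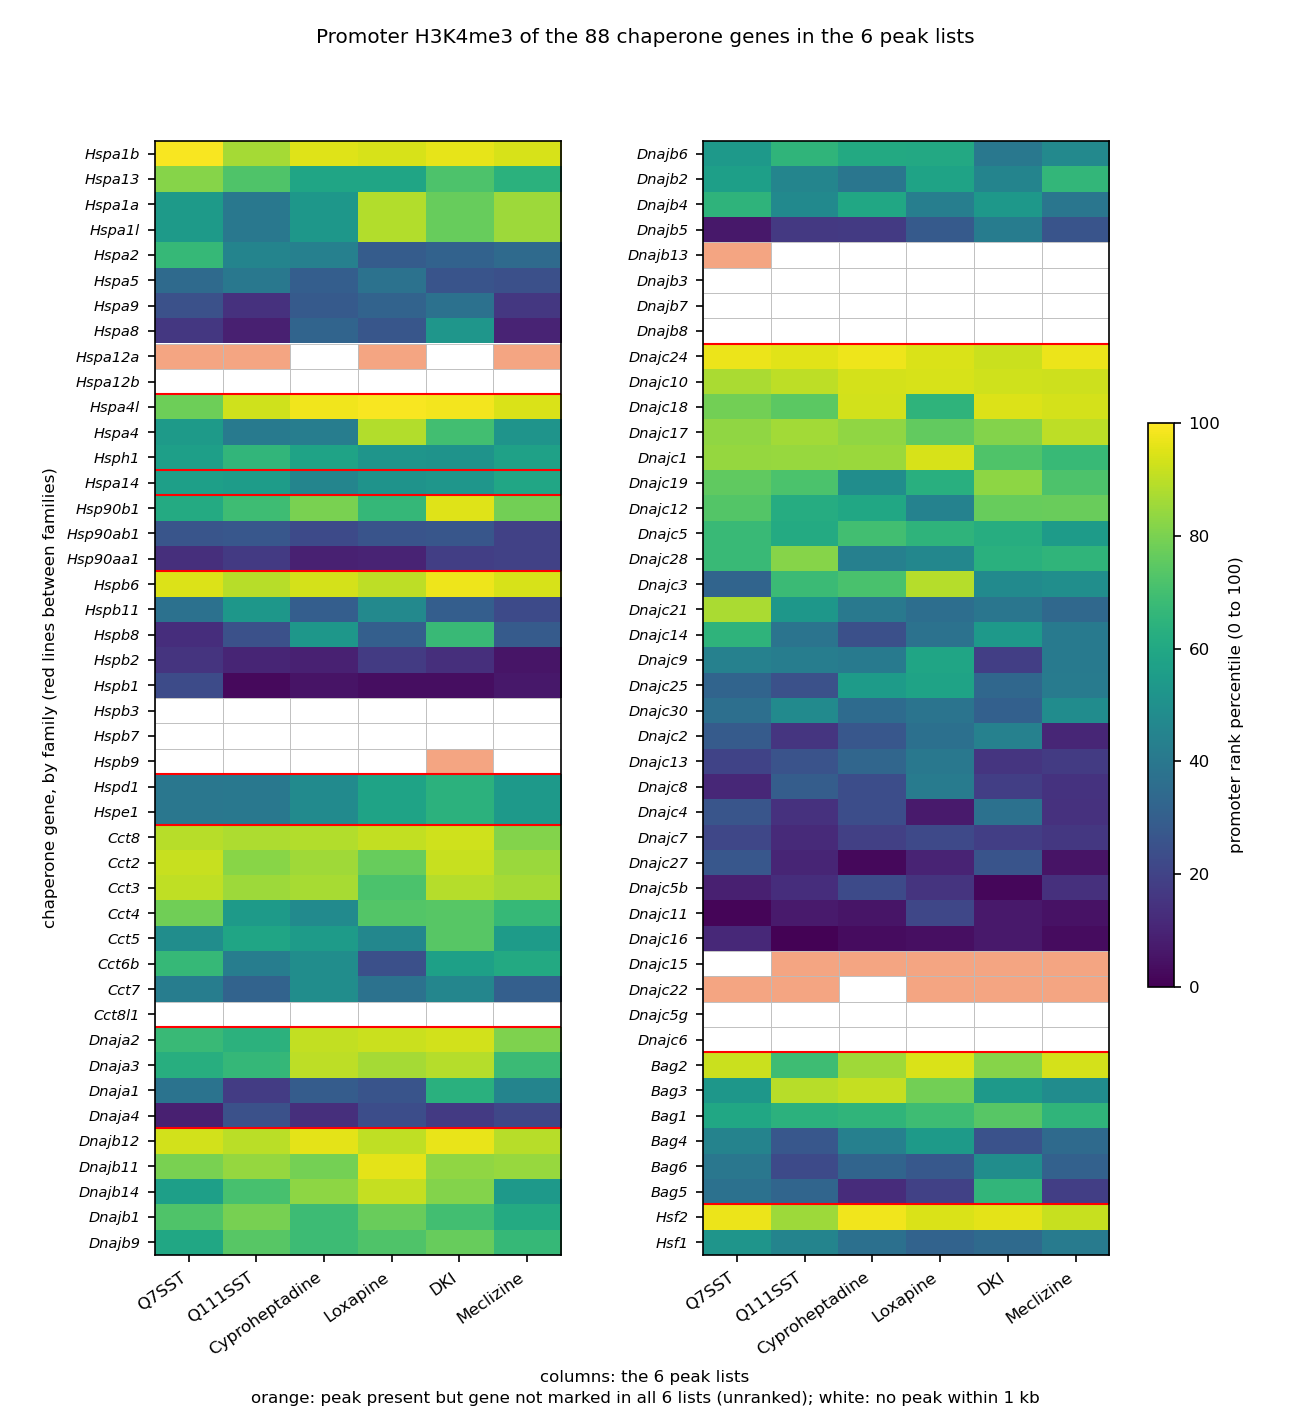
Promoter rank percentile (colour, 0 to 100) of each of the 88 chaperone genes (rows, by family) in the 6 peak lists (columns). Orange cells are peaks of genes that were not marked in all 6 lists and so have no rank, and white cells have no peak within 1 kb. The 74 genes marked everywhere fill most rows, and 9 rows are white throughout.

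Few members gained or lost a promoter peak against Q111SST, where 77 could be lost and 11 gained. When the peak had to cover the start itself, more members were lost in every comparison, as given in the closing section. In Q7SST 1 member was lost (Dnajc15, against 3.58% of all genes) and 1 gained (Dnajb13, 8.19%). With cyproheptadine 2 were lost (Dnajc22 and Hspa12a, 5.72%) and 0 gained (0.66%). With loxapine 0 were lost (2.08%) and 0 gained (2.17%). With DKI 1 was lost (Hspa12a, 4.93%) and 1 gained (Hspb9, 0.596%). With meclizine 0 were lost (1.33%) and 0 gained (2.21%).

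Dnajc15 had the highest scores among members that differed in presence. It encodes a DnaJ protein of the mitochondrial inner membrane, also called methylation-controlled J protein. The gene (ENSMUSG00000022013) lies at chr14:77820681-77875125 on the minus strand (GRCm38). No peak was listed in Q7SST, and the scores in the 5 mutant lists were 138, 73, 102, 81 and 137, with widths of 1194 to 1266 bp. The Q111SST peak, chr14:77874133-77875346, covered 129 bp of exon and 665 bp of intron of the longest coding transcript and 420 bp upstream of it. The nearest Q7SST peak was 389766 bp away. Dnajc15 was the only member marked in all 5 mutant lists and not in Q7SST, a pattern seen in 0.908% of all genes. Between the Q7SST peaks that flank it, 877835 bp apart, Q111SST had 1 peak, the one at Dnajc15. The next genes in that stretch, Epsti1, Fam216b and Tnfsf11, had no promoter peak in any list, and Q7SST had 354 stretches without a peak at least as long. With 2 lines and 1 list each, a difference between lines and a difference between libraries cannot be told apart. The 250 bases upstream of its RefSeq start (GRCm38.p6, chr14:77874918-77875167, minus strand) are shown with their 12 CpG sites in capitals, since this is the promoter whose mark was in the mutant lists alone.
Dnajc15: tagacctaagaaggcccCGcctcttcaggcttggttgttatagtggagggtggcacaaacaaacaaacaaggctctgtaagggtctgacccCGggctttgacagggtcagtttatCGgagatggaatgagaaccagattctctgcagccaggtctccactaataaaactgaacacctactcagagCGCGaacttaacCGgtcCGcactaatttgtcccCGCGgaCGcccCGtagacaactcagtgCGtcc

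The other 4 members of this kind had weak peaks or peaks at the edge of the window. Dnajb13, a sperm flagellum gene, had a 198 bp peak with a score of 34 over its start in Q7SST, and in the other 5 lists the nearest peak was at least 20089 bp away. It was the only member marked in Q7SST alone (2.76% of all genes). Hspb9, a testis gene, counted as marked with DKI from a peak 948 bp from its start, while the nearest peaks of the other lists were 1080 to 1147 bp away, so its gain rests on the window. Dnajc22 scored 49, 22, none, 18, 14 and 34. Hspa12a, a distant Hsp70 relative, scored 28, 17, none, 16, none and 33. When starts of the full annotation were used, Hspa12a was marked in all 6 lists.

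The 9 members without a peak in any list were Cct8l1, Dnajb3, Dnajb7, Dnajb8, Dnajc5g, Dnajc6, Hspa12b, Hspb3 and Hspb7. Of these, 8 belong to a list of 16 chaperones known from testis, muscle, neurons or vessels, of which 6 were marked in all 6 lists (Hspa1l, Hspb2, Hspb6, Cct6b, Dnajc5b and Dnajc12). For 4 of those 6 the peak also held the start of another gene. The testis gene Hspa1l shared its peak with Hspa1a, whose start is 547 bp away. Hspb2, known from muscle, shared its peak with Cryab at 553 bp, Hspb6 with Proser3 at 996 bp, and Cct6b with Zfp830 at 24 bp. In such a peak the mark of one gene cannot be told apart from that of its neighbour. Over all members marked in Q111SST, 22 of 77 peaks (28.6%) held a start of another gene, against 18.2% of all marked genes. These include Bag4 with Lsm1 at 1 bp, Bag5 with Apopt1 at 4 bp, Dnajc2 with the proteasome gene Psmc2 at 32 bp and Hsf1 with Bop1 at 158 bp.

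Hsp70 genes covered nearly the whole range of ranks. Hspa1b, a stress-inducible cytosolic Hsp70, was near the top with ranks of 98.8, 86.4, 94.9, 93.9, 96.5 and 93.9. Hspa8, the constitutive cytosolic Hsp70, was low with ranks of 16.3, 8.7, 32.0, 26.8, 52.4 and 10.0. Hspa5, the Hsp70 of the endoplasmic reticulum (ER), ranked 34.5, 39.9, 30.0, 37.7, 26.0 and 24.5, and no comparison moved it by 20 points. Hspa9, the mitochondrial Hsp70, ranked 24.7, 14.3, 28.2, 31.8, 37.1 and 16.3. Hspa2, known from testis, ranked 67.1 in Q7SST and 29.0 to 44.9 in the 5 mutant lists. The low scores of Hspa8 and Hspa5 went with wide peaks, 3340 bp and 2792 bp in Q111SST against a median of 1869 bp over all ranked genes, and by the area rank Hspa8 stood at 33.1 to 60.9.

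The inducible pair Hspa1a and Hspa1b needs care, since its members are nearly copies of each other. Over 250 bases upstream of the RefSeq starts they differed at 3 positions. Of the 50-base runs within 1 kb of either start, 48.8% occur elsewhere in the genome, and the reads were 50 bases long. Both promoters hold a heat shock element match (GAANNTTC) that begins 104 bases before the start, shown in capitals. The first lies at chr17:34959239-34959488 and the second at chr17:34972157-34972406, both on the minus strand (RefSeq, GRCm38.p6).
Hspa1b: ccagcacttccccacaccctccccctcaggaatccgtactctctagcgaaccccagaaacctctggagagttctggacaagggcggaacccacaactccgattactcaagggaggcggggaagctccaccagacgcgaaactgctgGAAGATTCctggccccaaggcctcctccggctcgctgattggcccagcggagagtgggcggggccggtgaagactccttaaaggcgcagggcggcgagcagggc
Hspa1a: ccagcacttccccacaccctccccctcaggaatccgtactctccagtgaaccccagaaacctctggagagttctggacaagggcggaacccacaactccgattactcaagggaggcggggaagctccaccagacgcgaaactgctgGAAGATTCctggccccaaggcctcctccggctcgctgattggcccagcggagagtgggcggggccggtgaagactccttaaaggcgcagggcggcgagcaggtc

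The Hspa1b peak ended 120 to 180 bp upstream of the start in all 6 lists, and the repeated runs begin 154 bp upstream and go on past 1000 bp downstream. The Q111SST peak of Hspa1b, chr17:34959386-34961276, held no base of the transcript. The Hspa1a peak lay mostly upstream of its start, toward the start of Hspa1l. It reached past the Hspa1a start in Q7SST, Q111SST and DKI and ended upstream of it with cyproheptadine, loxapine and meclizine, where it held no exon base. It had scores of 125, 104, 88, 180, 119 and 188. Its ranks were 54.5, 39.9, 52.9, 88.4, 76.8 and 85.5, so by score the loxapine, DKI and meclizine lists lay above the other 3. The area ranks were 15.4, 17.5, 8.90, 7.88, 22.5 and 9.99, with loxapine and meclizine below Q7SST and Q111SST. In those 3 lists the peak was 390, 682 and 510 bp wide, and in the others 972 bp (Q7SST), 1271 bp (Q111SST) and 465 bp (cyproheptadine). How reads from the repeated bases were placed is not given in the sources used here, and its part in these values was not tested.

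At some chaperone starts the list held 2 peaks, one on each side, with the start itself uncovered. H3K4me3 is carried by nucleosomes, and the starts of active genes are known to be depleted of them. Neighbouring peaks within a list were never closer than 773 (DKI) to 813 bp (meclizine), so narrower gaps cannot be seen. The chaperone pair Hspd1 and Hspe1 (Hsp60 and Hsp10), which are transcribed away from each other from starts 108 bp apart, had this form in all 6 lists. The gap was 836, 891, 1186, 1079, 1089 and 952 bp long. The peak on the Hspd1 side scored 107, 104, 83, 125, 102 and 133, and the peak on the Hspe1 side 63, 65, 33, 51, 57 and 56, so the Hspd1 side was the higher in every list. In Q111SST the Hspd1 peak, chr1:55086279-55087476, lay wholly inside that gene, with 1022 bp in introns and 176 bp in exons.

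Hspa8, Dnaja2, Hsf2 and Hspa9 were covered by a wide peak in Q7SST, Q111SST and meclizine and had an uncovered start with cyproheptadine, loxapine and DKI. For Hspa8 the single peak ran from 1383 bp upstream to 1956 bp downstream in Q111SST, and with DKI the 2 pieces left a gap of 873 bp. For Dnaja2, an Hsp40 of the cytosol, the gaps were 808, 880 and 875 bp, and for Hsf2 they were 822, 819 and 791 bp. Dnajc3, an ER co-chaperone, had the gap in the same 3 lists and in Q111SST, and Dnaja1 in Q111SST, loxapine and DKI. The ranks of Dnaja1, an Hsp40 that works with Hspa8, were 38.2, 17.7, 29.1, 26.0, 63.4 and 45.1, and those of Dnaja2 67.8, 64.4, 90.9, 92.1, 93.1 and 80.7. Gaps at member starts were 774 bp or longer, so the shortest were at the smallest spacing that a list held.

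**Figure D2:**
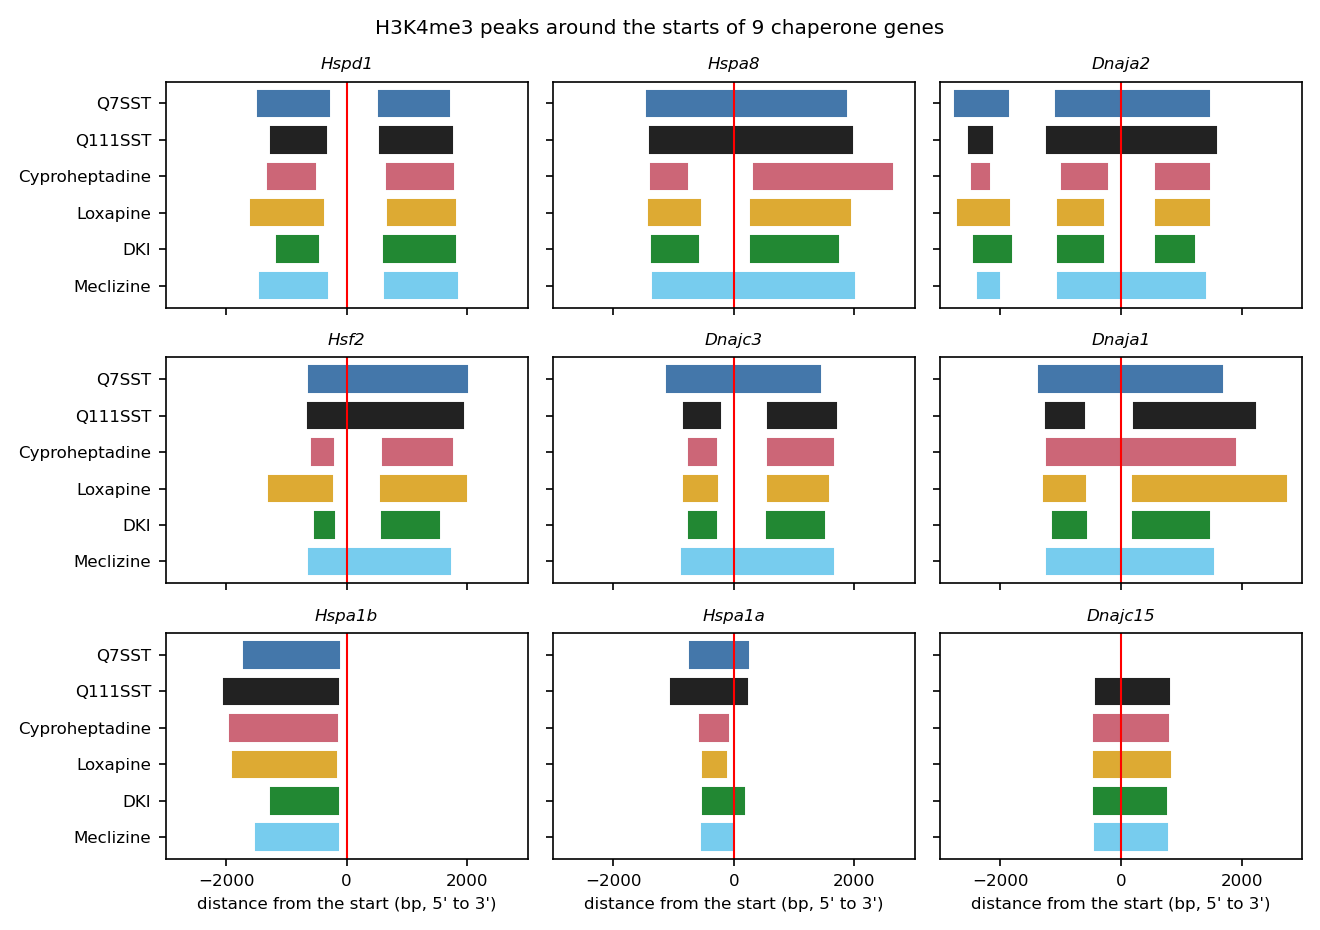
Peaks (bars) around the start (red line, 0) of 9 chaperone genes in the 6 lists, as distance in bp in the direction of transcription. Hspd1 has an uncovered start in all 6 lists, Hspa8, Dnaja2 and Hsf2 in the cyproheptadine, loxapine and DKI lists, the Hspa1b peaks stop short of the start, and Dnajc15 has no bar in Q7SST.

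Counted over the 74 ranked members, uncovered starts with a peak on each side numbered 4 in Q7SST (4.82% of all ranked genes), 6 in Q111SST (4.85%), 9 under cyproheptadine (6.97%), 9 under loxapine (7.23%), 11 under DKI (6.2%) and 2 under meclizine (3.84%). As shares of the members these are 5.41, 8.11, 12.2, 12.2, 14.9 and 2.7%. For members and for all genes alike, the most such starts were in the cyproheptadine, loxapine and DKI lists, which had the narrowest peaks. A wide peak has a single score and its 2 pieces have a score each, of which the higher was ranked. With DKI 6 members had an uncovered start that was covered or one-sided in Q111SST, and 5 of the 6 ranked at least 20 points higher there. Over all ranked genes 308 differed in this way, and 118 of them ranked at least 20 points higher with DKI.

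**Figure D3:**
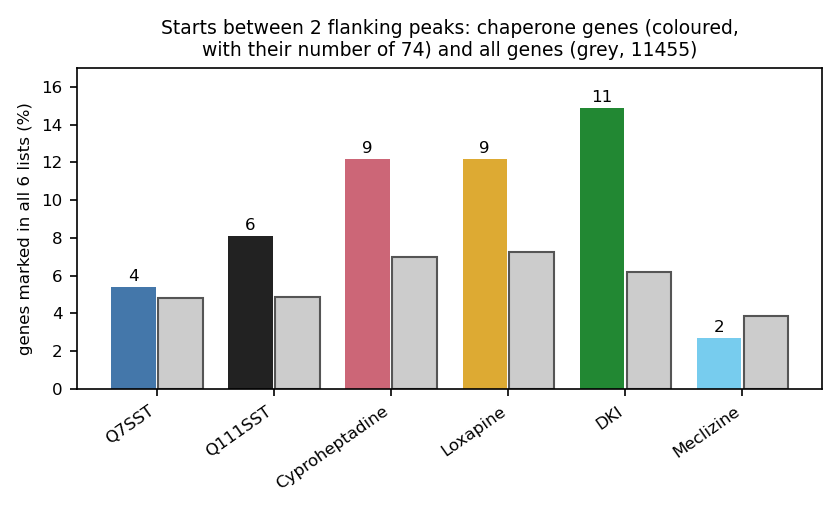
Share (%) of the 74 ranked chaperone genes (coloured bars, with the number of genes) and of all 11455 ranked genes (grey bars) whose start lay uncovered between 2 flanking peaks, by list. The chaperone share was 14.9% with DKI and 2.7% with meclizine.

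The Hsp90 genes of the cytosol were weakly marked by score. Hsp90aa1, the stress-inducible form, ranked 13.5, 17.1, 9.3, 10.0, 18.6 and 19.2. Hsp90ab1, the constitutive form, ranked 26.3, 27.1, 22.6, 26.0, 26.9 and 19.2. Neither moved by 20 points in any comparison, and their Q111SST peaks were 2323 and 2657 bp wide. Hsp90aa1 had area ranks of 19.9 to 33.0 and Hsp90ab1 of 45.0 to 63.2. Hsp90b1 (Grp94), the ER form, ranked 61.1, 68.9, 79.7, 66.5, 95.0 and 78.6. Its DKI rank was the highest of the 6, also on the area rank, where it exceeded Q111SST by 8.25 points, and its peak also held the start of Ttc41.

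Of the Hsp110 genes, which exchange nucleotide on Hsp70, Hspa4l was high with ranks of 77.8, 92.8, 98.0, 99.2, 98.2 and 94.2. Hspa4 ranked 54.5, 40.8, 42.4, 88.4, 69.8 and 51.9, at scores of 125, 105, 78, 180, 109 and 130. Its peak width hardly differed between lists (2018 to 2448 bp). Hsph1, a heat-inducible member, ranked 56.3, 66.0, 57.9, 52.3, 51.4 and 57.1 and did not move by 20 points in any comparison.

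The 5 ranked small heat shock genes had low median ranks, of 22.7, 24.8, 30.0, 30.4, 29.8 and 22.5, and median area ranks of 41.2, 61.4, 11.3, 17.3, 38.2 and 64.3. Hspb1 (Hsp25) ranked 22.7, 2.6, 5.2, 3.8, 3.8 and 6.3, at scores of 85, 39, 31, 41, 28 and 57, so its Q7SST value was the highest. Hspb8, which works with Bag3 in clearing aggregates, ranked 13.0, 24.8, 52.9, 30.4, 67.6 and 28.7. Its scores were 69, 85, 88, 89, 106 and 99. Bag3 itself ranked 52.9, 89.3, 91.3, 78.7, 54.2 and 48.8, so the partners did not have the same order over the lists. Hspb11 had a peak of 3112 bp with meclizine and of 758 to 1050 bp elsewhere, and its ranks were 37.3, 52.8, 30.0, 47.2, 29.8 and 22.5. Hspb6 ranked 94.6, 89.3, 93.7, 90.1, 97.3 and 93.9 from the peak it shares with Proser3, and Hspb2 ranked 15.2, 10.5, 9.25, 17.6, 13.5 and 5.58 from the one it shares with Cryab.

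The heat shock factors differed from each other. Hsf1, the main factor of the heat shock response, ranked 52.2, 44.9, 37.1, 31.8, 34.5 and 41.5, and its peak was shared with Bop1. Hsf2 ranked 97.0, 85.5, 98.0, 94.2, 96.1 and 91.5. Over the 14 genes of the heat shock response core, which holds the inducible Hsp70 pair, Hspa8, Hsph1, the cytosolic Hsp90 genes, Dnaja1, Dnajb1, Hspb1, Hspd1, Hspe1, Bag3 and both factors, all 14 were marked in all 6 lists. Their median ranks were 46.0, 39.9, 47.8, 55.1, 58.8 and 51.4, against 49.7 to 50.4 for all ranked genes. Their median area ranks were 58.0, 42.1, 58.2, 50.4, 61.0 and 49.1.

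Heat shock elements were looked for in the 300 bases around each RefSeq start (250 before, 50 after), on both strands. Of the 88 members 71 matched an entry. A 2-unit match (GAANNTTC or TTCNNGAA) was in 7 of 10 core promoters (70%), in 18 of the 71 matched members (25.4%) and in 13.8% of 16521 promoters. The 7 include the near copies Hspa1a and Hspa1b, and Hspd1 and Hspe1, whose matches are the same bases. A 3-unit match (GAANNTTCNNGAA or TTCNNGAANNTTC), which contains 2 overlapping 2-unit matches, was in 3 of 10 core promoters, Hspd1, Hspe1 and Hsph1, and in 0.466% of all. Among the other matched members only Dnajb6, a suppressor of polyglutamine aggregation, had one. Such a match is a description of the letters and not a binding site. The stretches below show the arrays in capitals, for the divergent start pair whose start was uncovered (read in the Hspe1 direction), for Dnajb6 and for Hspb1. They lie at chr1:55088039-55088096, chr5:29735832-29735884 and chr5:135887782-135887849, all on the plus strand (RefSeq, GRCm38.p6).
Hspe1: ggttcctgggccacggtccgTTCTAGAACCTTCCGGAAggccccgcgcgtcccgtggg
Dnajb6: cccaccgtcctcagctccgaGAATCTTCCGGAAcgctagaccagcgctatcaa
Hspb1: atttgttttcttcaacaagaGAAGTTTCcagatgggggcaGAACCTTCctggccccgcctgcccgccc

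The array of the Hspd1 and Hspe1 pair, 89 bases before the Hspe1 start, thus lay inside the gap between the peaks in all 6 lists. Promoters with a 2-unit or 3-unit match did not share a level. Hspd1 and Hspe1 both ranked 39.8, 39.9, 47.8, 58.0, 64.3 and 54.1 from the peak on the Hspd1 side, which reached within 1 kb of both starts. Dnajb6 ranked 53.7, 65.2, 60.6, 60.3, 40.0 and 47.2, and Hsph1, also with a 3-unit match, 51.4 to 66.0. Hspb1, with 2-unit matches only, ranked 22.7 in Q7SST and 2.6 to 6.3 in the mutant lists.

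The ER chaperones were marked without exception. All 8 genes of the list had a peak in all 6 lists, and their median ranks were 70.5, 73.2, 75.2, 80.6, 74.7 and 67.2. Their median area ranks were 85.9, 82.4, 87.2, 78.7, 78.7 and 79.2. Dnajc10, which reduces disulfide bonds, ranked 87.1, 90.2, 93.5, 94.0, 92.9 and 92.3. Dnajb11, a partner of Hspa5, ranked 80.0, 84.2, 79.0, 95.8, 83.5 and 84.4, and Dnajc1 ranked 84.2, 84.6, 84.8, 94.0, 72.6 and 67.6. By the area rank Dnajb11 stood at 76.8 with loxapine, its lowest, and at 96.9 in Q111SST, where its peak also held the start of Tbccd1. Dnajb9 (ERdj4) ranked 59.6, 74.0, 68.7, 72.4, 76.8 and 66.9. Hspa13 ranked 81.8, 72.5, 58.8, 58.8, 71.9 and 63.9. Only Hspa5 lay below 50 in every list by score, while its area ranks were 70.5, 70.5, 81.0, 72.7, 73.1 and 59.9. Dnajc3 (p58IPK), which inhibits the kinase PERK, ranked 32.2, 68.2, 71.4, 88.7, 47.9 and 49.6, at scores of 98, 139, 108, 181, 84 and 127. Its start was covered in Q7SST and meclizine and uncovered in the other 4 lists.

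The ER stress element (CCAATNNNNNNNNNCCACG, both strands) was in 3 of 7 ER promoters and in 0.157% of 16521. The 3 are shown with the match in capitals, as the promoters that carry the letters of the unfolded protein response. They lie at chr2:34772005-34772063 (plus strand), chr10:86705513-86705676 (minus strand) and chr14:118937807-118937865 (plus strand), in RefSeq GRCm38.p6. Hsp90b1 has 2 matches, the second on the other strand.
Hspa5: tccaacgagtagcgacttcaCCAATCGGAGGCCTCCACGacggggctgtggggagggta
Hsp90b1: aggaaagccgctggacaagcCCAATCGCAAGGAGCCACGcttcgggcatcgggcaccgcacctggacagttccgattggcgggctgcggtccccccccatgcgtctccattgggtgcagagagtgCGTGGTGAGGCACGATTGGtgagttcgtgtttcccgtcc
Dnajc3: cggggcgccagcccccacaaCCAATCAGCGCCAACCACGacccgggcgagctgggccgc

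These 3 promoters had Q111SST ranks of 39.9, 68.9 and 68.2. Against Q111SST, Hsp90b1 was 20 or more points higher with DKI, while Dnajc3 was 20 or more points lower in Q7SST and with DKI and higher with loxapine, so no list moved all 3 by 20 points. In Q7SST all 3 ranked below their Q111SST value, as did 7 of the 8 ER genes, with a median difference of -4.82 points, against 5783 of the 11455 ranked genes. On the area rank it was 3 of the 8, Hsp90b1 (91.0 in Q111SST and 93.3 in Q7SST) and Dnajc3 (48.9 and 56.8) were higher, and the median difference was 2.24 points.

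Of the 9 mitochondrial chaperones 8 were marked in all 6 lists, the exception being Dnajc15. Median ranks were 39.8, 43.9, 45.7, 52.2, 63.9 and 54.1. Dnaja3 (Tid1), an Hsp40 of the matrix, ranked 62.5, 66.7, 90.1, 86.4, 88.7 and 68.2, with a width between 1748 and 2062 bp throughout. Dnajc19, an inner membrane protein, ranked 75.6, 71.7, 48.9, 63.3, 83.0 and 71.9. Dnajc28 ranked 67.8, 81.7, 43.6, 46.4, 63.4 and 65.6, and Dnajc30, which acts with the ATP synthase, ranked 36.4, 47.9, 35.1, 38.4, 30.6 and 48.8. Dnajc11, at the contact of outer and inner membrane, was among the weakest with ranks of 1.5, 7.4, 5.7, 21.3, 7.0 and 4.9. In the DKI list the peak on the Hspd1 side, ranked for both Hspd1 and Hspe1, lay 20 or more points above Q111SST, as did Hspa9 and Dnaja3. The peak on the Hspe1 side scored 65 in Q111SST and 57 with DKI. Hspa9 was 8.15 points higher on the area rank, and by width it stood at -33.4 points.

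The CCT ring was strongly marked. Its 6 ranked subunits had median ranks of 83.8, 70.5, 70.4, 72.4, 81.4 and 74.2. Cct8 ranked 89.2, 87.6, 88.5, 90.6, 92.8 and 81.6, Cct2 91.7, 82.2, 85.8, 76.6, 91.6 and 84.8 and Cct3 90.4, 85.5, 86.7, 71.8, 88.7 and 86.5. Cct5 ranked 48.9, 58.7, 55.0, 46.4, 74.1 and 54.8. Cct7 ranked 42.3, 31.9, 48.9, 37.7, 46.1 and 30.2 and was the lowest subunit in every list but cyproheptadine, where Cct4 was. Cct4 ranked 78.3, 54.3, 47.8, 73.1, 74.1 and 66.9, and its step from Q111SST to Q7SST was the only one of a ring subunit to reach 20 points. With DKI 6 of the 6 subunits ranked above their Q111SST value, by a median of 11.8 points. Over all ranked genes 5510 ranked higher with DKI and 5942 lower. By the area rank 4 of the 6 were higher with DKI, while Cct3 (97.5 in Q111SST and 97.2 with DKI) and Cct7 (72.6 and 60.5) were lower. Of the ring subunits outside the symbol rule, Tcp1 ranked 60.5 in Q111SST and 60.4 with DKI, and the Cct6a peak stood at percentile 90.3 of all peaks in Q111SST and 84.0 with DKI.

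**Figure D4:**
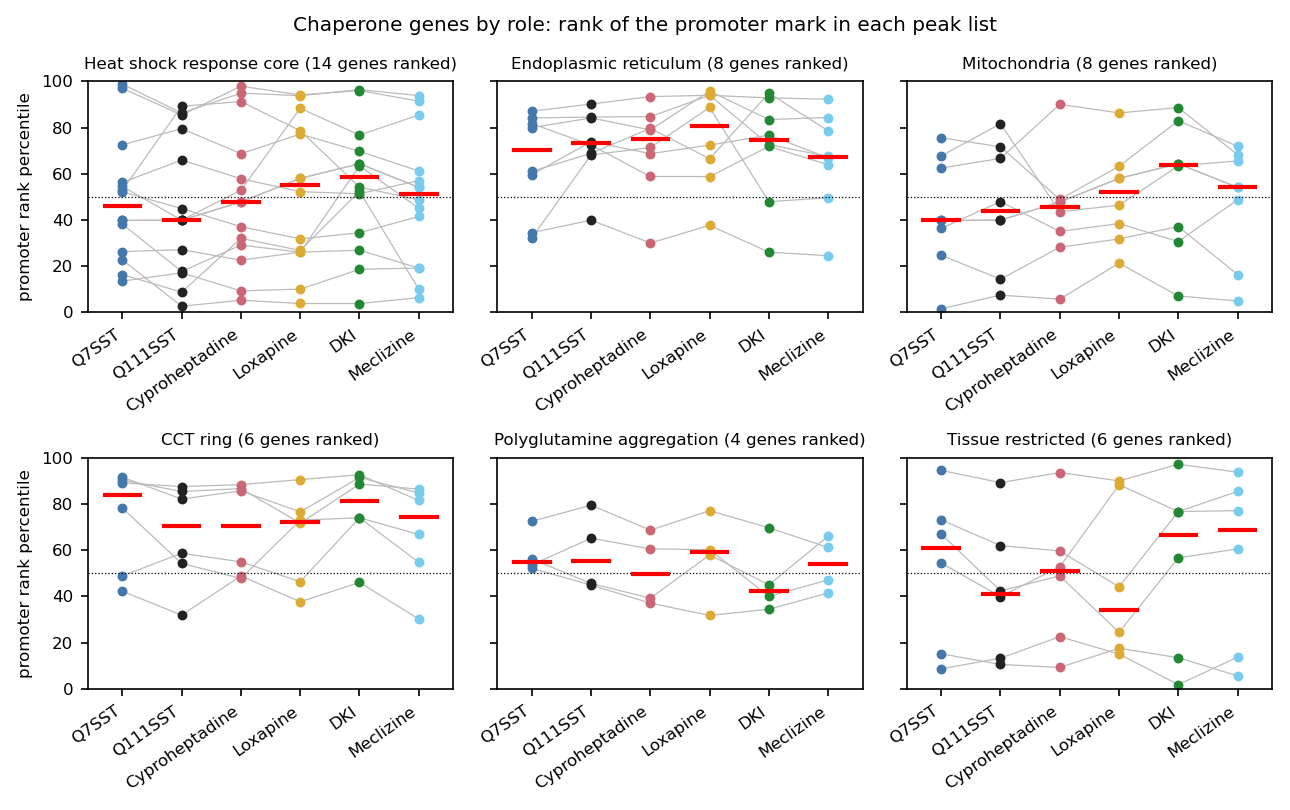
Promoter rank percentile (y axis, 0 to 100) of the ranked genes of 6 role lists in the 6 peak lists (points, joined by gene), with the median of each list of genes as a red bar and 50 as a dotted line. ER medians lie at 67.2 or above and CCT ring medians at 70.4 or above.

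Of the 6 members tied to polyglutamine aggregation, Dnajb1, Dnajb2, Dnajb6 and Hsf1 were marked in all 6 lists, and Dnajb8 and Hspb7 in none. Dnajb1 ranked 72.6, 79.6, 68.7, 77.2, 69.8 and 61.2. Dnajb2, which acts mainly in neurons, ranked 56.3, 45.6, 39.3, 58.0, 45.0 and 66.2. With cyproheptadine and with DKI all 4 ranked below their Q111SST value, with median differences of -7.11 and -10.1 points. Of all ranked genes 5873 and 5942 were lower in those lists, about as many as were higher. Dnajb6 with DKI was the only one of these 8 differences to reach 20 points. With meclizine the median difference was -10.7 points, with 1 gene higher (Dnajb2) and 3 lower. With loxapine it was -3.65 points, also with 1 higher and 3 lower, and in Q7SST 2 were higher and 2 lower. By the area rank 3 of the 4 were lower with cyproheptadine, loxapine and DKI, with medians of -1.49, -3.70 and -7.29 points, and 2 with meclizine, with a median of -4.65 points.

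Other DnaJ genes spanned the scale, from the top few percent of promoters to the bottom few. Dnajc24, needed for diphthamide synthesis, was among the highest with ranks of 97.0, 95.4, 97.6, 94.4, 92.1 and 96.9. Dnajb12, an ER membrane protein, ranked 93.0, 89.6, 95.7, 90.4, 96.9 and 89.2. Dnajc16 was among the lowest, with ranks of 11.7, 0.445, 3.15, 4.11, 7.01 and 3.45, as was Dnajc5b with 8.63, 13.3, 22.6, 15.1, 1.79 and 13.7. Dnajc27 ranked 27.1, 10.5, 2.17, 10.0, 26.0 and 5.24. Dnajc21, a ribosome biogenesis factor, ranked 87.1 in Q7SST and 52.8, 40.4, 36.2, 39.2 and 34.0 in the mutant lists. Dnajc2, which acts at the ribosome, ranked 28.5, 15.5, 27.2, 37.0, 44.0 and 10.7, and its Q111SST peak also held the start of Psmc2. The ranked peak ended 79 bp upstream of the Dnajc2 start with cyproheptadine. With DKI it ran from 3012 to 91 bp upstream. Dnajc25 ranked 32.2, 24.8, 55.0, 58.0, 33.6 and 41.5 and Dnajc14, an ER membrane protein, 64.9, 38.3, 24.4, 37.7, 54.2 and 40.8. Dnajb14, another, ranked 56.3, 71.0, 82.8, 91.2, 81.3 and 54.1, so it was highest with loxapine. Against Q111SST the next 3 members moved past 20 points under DKI alone. Dnajb5 ranked 6.59, 16.6, 17.1, 28.2, 42.0 and 25.8 and was highest with DKI. Dnajc4 ranked 26.3, 14.3, 23.5, 7.12, 37.1 and 14.2. Dnajc9, a histone chaperone, ranked 43.9, 42.4, 41.4, 58.8, 18.6 and 40.8 and was lowest with DKI. With peaks up to 5 kb away counted, the DKI difference was 1.80 points for Dnajc4 and -16.7 points for Dnajc9. Cct6b, a testis relative of the ring subunits, ranked 67.1, 42.4, 48.9, 24.5, 56.7 and 60.6 from its shared peak. The other DnaJ genes marked everywhere, Dnaja4, Dnajb4, Dnajc5, Dnajc7, Dnajc8, Dnajc13, Dnajc17 and Dnajc18, moved by under 20 points in every comparison, as did Hspa14.

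Among Bag genes, Bag2 ranked 92.2, 68.9, 85.8, 94.4, 81.8 and 93.6 and was lowest in Q111SST by score. Its area ranks were 70.6, 79.9, 63.0, 63.2, 58.1 and 93.1, with Q111SST below meclizine only. Bag1 ranked 59.6, 64.4, 65.3, 69.1, 74.1 and 65.6 and moved by under 10 points in every comparison. Bag4 ranked 44.8, 27.1, 43.6, 54.4, 25.1 and 34.7, highest with loxapine. Bag6, which guards membrane proteins in the cytosol, ranked 39.8, 22.5, 32.0, 27.5, 48.9 and 31.0, highest with DKI. Bag5 ranked 66.0 with DKI and 12.7 to 37.3 elsewhere, and with DKI its peak was 562 bp against 1750 to 2012 bp elsewhere.

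Between the wild-type and mutant lines under vehicle, 8 members ranked at least 20 points higher in Q7SST than in Q111SST (8.83% of all ranked genes) and 2 at least 20 points lower (8.56%). The 8 were Bag2, Cct4, Cct6b, Dnaja1, Dnajc14, Dnajc21, Hspa2 and Hspb1, the last by 20.1 points, or 19.9 with peaks up to 5 kb away counted. The 2 were Bag3 and Dnajc3. The count of higher members was close to the background share. Against all 5 mutant lists together, Dnajc21 and Hspa2 were 20 or more points higher in Q7SST (2 members, 2.41% of all genes) and 0 were lower (1.98%). Dnajc21 exceeded its highest mutant rank by 34.3 points and Hspa2 by 22.1 points.

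Under cyproheptadine 5 members were higher than in Q111SST (8.82% of all) and 3 lower (8.14%). The 5 were Dnaja2, Dnaja3, Dnajc25, Hspa8 and Hspb8 and the 3 Dnajc19, Dnajc28 and Hspb11. By the area rank, Dnaja2 stood at -20.5 points and Dnajc25 at -10.3 points, while Hspa8 stood at 26.9 points and Dnaja3 and Hspb8 also stayed 20 or more points higher. By width Hspa8 stood at -90.9 points. Under loxapine 10 were higher (7.38%) and 1 lower (6.67%). The 10 were Bag2, Bag4, Dnaja2, Dnajb14, Dnajc2, Dnajc25, Dnajc3, Hspa1a, Hspa1l and Hspa4, and the 1 was Dnajc28. By the area rank Dnaja2 stood at -26.6 points and Dnajc25 at -16.5 points with loxapine, and by score with peaks up to 5 kb away counted Dnajc2 stood at -8.61 points.

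Under DKI 17 members were higher (10.7% of all) and 5 lower (10.2%). The 17, or 23.0% of the 74, were Bag5, Bag6, Dnaja1, Dnaja2, Dnaja3, Dnajb5, Dnajc2, Dnajc4, Hsp90b1, Hspa1a, Hspa1l, Hspa4, Hspa8, Hspa9, Hspb8, Hspd1 and Hspe1. Of these, Hspa1a and Hspa1l were ranked on one peak, and Hspd1 and Hspe1 on the peak of the Hspd1 side. The 5 were Bag3, Dnajb6, Dnajc3, Dnajc9 and Hspb11. The median difference of the members from Q111SST was 6.35 points, and that of all ranked genes was -0.454 points. The members' median fell to 0.81 points by the area rank, and to 1.82 points by width. The 32 further chaperone genes outside the symbol rule had a median of 5.44 points with DKI, with 20 higher and 12 lower. By the area rank their median was 1.82 points, with 19 higher and 13 lower. Under meclizine 5 were higher (4.89%) and 2 lower (4.2%). The 5 were Bag2, Dnaja1, Dnajb2, Hspa1a and Hspa1l, and the 2 Bag3 and Hspb11.

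**Figure D5:**
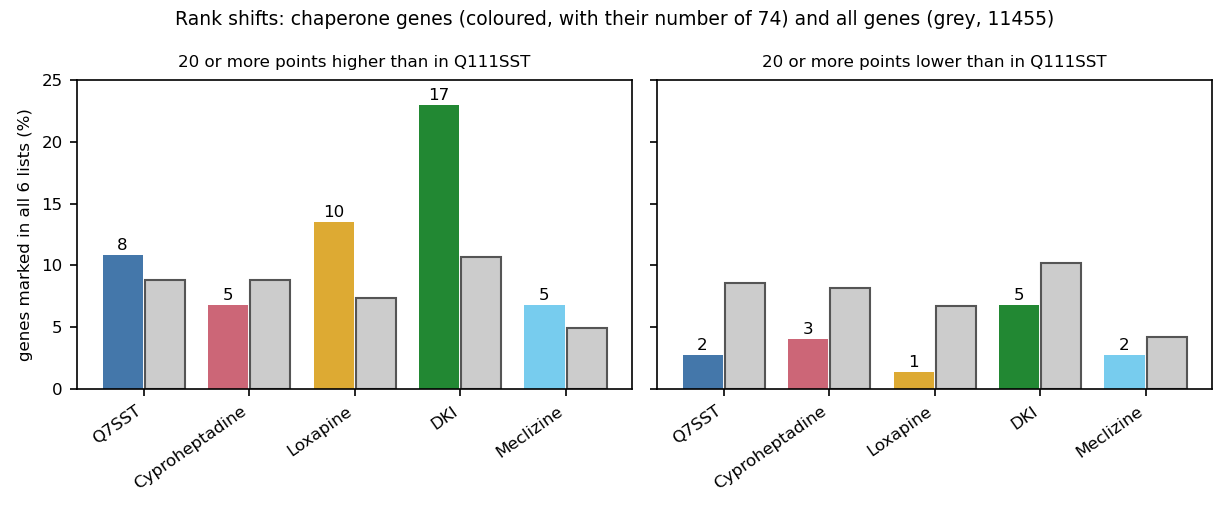
Share (%) of the 74 ranked chaperone genes (coloured bars, with the number of genes) and of all 11455 ranked genes (grey bars) that ranked 20 or more points higher (left) or lower (right) than in Q111SST. The DKI bar on the left, 17 genes, stands farthest above its grey neighbour.

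Over the 5 comparisons 35 of the 74 ranked members, and 5173 of the 11455 ranked genes, moved by 20 points in at least 1.

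The DKI excess depended on how strength was scored. Of the 22 members that moved with DKI, 9 had a peak at least 1.5 times wider or narrower than in Q111SST, against 633 of the 2392 moved genes overall. Such a change of width was seen in 24 of the 74 members and 2128 of the 11455 ranked genes. On the area rank 7 members were higher with DKI (6.7% of all genes) and 5 lower (6.45%). In Q7SST 6 were higher (7.66%) and 3 lower (7.18%). With cyproheptadine 5 were higher (5.24%) and 2 lower (5.69%), with loxapine 5 (4.78%) and 3 (4.15%), and with meclizine 2 (3.24%) and 2 (2.67%). The 7 higher with DKI were Dnaja1, Dnaja3, Dnajc2, Hspa4, Hspb8, Hspd1 and Hspe1. These 7 were also among the 17 higher by score, although Dnajc2 stood at -1.72 points by score when peaks up to 5 kb away were counted. By the area rank Hspa8 was 9.16 points higher with DKI and Dnaja2 stood at -34.6 points. Of the 58 differences of 20 points in the 5 comparisons, 19 were kept on the area rank, 23 became smaller than 20 points and 16 changed direction. The 16 were Bag2, Cct6b and Dnajc3 in Q7SST, Dnaja2 and Dnajc25 with cyproheptadine, Bag2, Dnaja2, Dnajb14, Dnajc25, Hspa1a and Hspa1l with loxapine, Bag5 and Dnaja2 with DKI, and Hspa1a, Hspa1l and Hspb11 with meclizine. By width 39 of the 58 changed direction.

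Most members marked everywhere had CpG-rich promoters. The observed over expected CpG ratio reached 0.6 in 51 of 58 such promoters (87.9%) and in 78.3% of those of all genes marked in all 6 lists. It had a median of 0.854 in the 58 members and of 0.474 in the 9 marked in none. Over all genes the medians were 0.793 (9022 promoters) and 0.198 (6053 promoters), so members and other genes were ordered alike. Dnajc15 had a ratio of 0.705, nearer to the marked members.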

How the data were processed

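After crosslinking and micrococcal nuclease digestion, chromatin bound by an H3K4me3 antibody was sequenced as single-end reads of 50 bases. The submitters' processing notes name Trimmomatic 0.36, Bowtie2, SAMtools 1.3, MACS2 and build mm10. The authors deposited 1 peak list per condition, each line with a position and a whole-number score, whose scale is not given in the sources used here and whose lowest value was 10 in every list. Read totals are not given, which leaves depth unknown.

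Scores were compared only as ranks within a list. Genes of the same symbol were merged and the mitochondrial genome was left out. A rank difference of 20 points was counted. Members named with values were those of the role lists, those marked in some lists only, those with such a difference and the 5 highest and 5 lowest by mean rank. Bag1, Dnajb12 and Dnajc27 met none of these conditions and were named as well, and Dnajc12 of the tissue list is given without ranks. The members and lists were chosen with earlier results of these data known. Python 3.11.15, numpy 2.4.6 and pandas 2.3.3 were used, and the code was tested on simulated lists. A further progenitor marker is not reported here. Peak widths, 50-base runs (counted on both strands of GRCm38) and motifs were read by the same code. Alternatives were a window of 0 or 5 kb, a minimum score of 47 (the median of the pooled lists), lists of equal size, 1 start per gene, the full annotation, other ranks and other thresholds. The uncovered starts, the full annotation and the area rank (summed score times width) were chosen after seeing the data.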

Additional observations from a re-analysis of the deposited data

How the results depend on the processing

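What depth limits cannot be stated, since read totals are unknown. No paired analysis was possible because there was a single list per condition and no difference was tested. With 1 start per gene every count stayed within 1.5 times of its value. No share of all genes is given beside the member counts of this section. Only those by summed score times width have one, given above, so the others cannot be read against a background. Requiring a peak over the start left 47 members marked in all 6 lists, with 4 lost and 5 gained in Q7SST, 10 and 2 with cyproheptadine, 9 and 1 under loxapine, 10 lost under DKI, and 3 and 4 under meclizine. A 5 kb window gave 1 gained with loxapine, 0 under DKI and 1 under meclizine, and 2 members shifted down with loxapine. With a minimum score at the median of the pooled lists, 2 were lost and 3 gained in Q7SST, 6 were lost with cyproheptadine, 3 were lost and 0 gained with DKI, and 2 were gained with meclizine. With lists of equal size 3 were gained in Q7SST, 0 lost with cyproheptadine, 0 lost and 2 gained with DKI, and 2 gained with meclizine. With the full annotation 1 was lost with cyproheptadine and 0 with DKI.

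Among all peaks of a list, rather than among promoters, the median member ranked 84.1, 83.3, 79.5, 86.6, 81.8 and 83.1 in list order, which follows from the weaker peaks added. With a shift of 10 points the counts up and down were 24 and 12 in Q7SST, 18 and 10 with cyproheptadine, 23 and 12 under loxapine, 30 and 16 under DKI, and 14 and 13 under meclizine. With a 1.5-fold change of the scaled score they were 2 and 1, 1 up with cyproheptadine, 6 and 0, 10 and 1, and 3 and 1. Ranked by peak width they were 4 and 4, 3 and 11, 4 and 9, 3 and 14, and 5 down with meclizine. By summed score times width they were 5 and 3 with loxapine, 7 up with DKI and 2 up with meclizine.

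Of the 58 single shifts of 20 points, 19 were kept by summed score times width and 6 by width. By summed score times width Dnaja2 turned to -20.5 with cyproheptadine, -26.6 with loxapine and -34.6 with DKI, and by width to -76.2, -82.6 and -83.0. Also by width, Bag2 turned to -42.6 in Q7SST and -53.1 with loxapine, Cct6b to -41.5 in Q7SST, Dnajc25 to -20.9 with loxapine and Hspa8 to -90.9 with cyproheptadine. With DKI, Bag5 turned to -49.7, Dnaja1 to -24.7, Hspa8 to -86.8 and Hspa9 to -33.4. Bag3 turned to 30.5 in Q7SST, 39.3 with DKI and 33.7 with meclizine, Dnajc3 to 75.6 in Q7SST and Hspb11 to 87.8 with meclizine. The cause of the other changes was not tested.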
